A study of Mus musculus with 32 samples.

Results

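Mouse embryonic stem cells labelled as Mettl3 knockout (KO) were compared with Rx:GFP stem cells (WT) at day 0, before retinal differentiation. These 4 libraries, 2 per group, are part of 32 that follow retinal organoids over days 0, 2, 4 and 6. The labels give AGN (0.1 µM) as part of the differentiation medium, so the WT and KO libraries of days 2 and 6 used near the end differ from day 0 in medium as well as time. The WT cells are Rx:GFP stem cells, genotype WT and untreated. By its name the line carries a GFP reporter for Rx, a transcription factor of the early eye field. The KO cells are the Mettl3 KO line, also untreated. All genes in the 4 libraries enter the comparison. The labels do not say whether the KO line is a single clone, which allele it carries or whether it was made from the Rx:GFP line. A further pair of day 0 groups, used below only to follow genes, is the Mettl3 KO line overexpressing a METTL3-GRBD fusion, untreated (no Dex) or labelled as treated with dexamethasone (Dex, a synthetic glucocorticoid). The protocol speaks of Dex at 10 µM for 2, 4 and 6 days only, so the dose and duration in these day 0 cultures are not known. By the series' design the fusion stays in the cytosol unless Dex is given, and Dex brings it into the nucleus.

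N6-methyladenosine (m6A) is the most common internal modification of messenger RNA. It is written in the nucleus by a complex whose catalytic subunit is METTL3 and whose RNA-binding partner is METTL14, with WTAP, VIRMA, ZC3H13, CBLL1 (HAKAI) and RBM15 as further subunits, and it is read by proteins such as those of the YTH family. Marked transcripts are often degraded faster, the sites lie preferentially near stop codons and in long internal exons, and mouse stem cells without Mettl3 are known to remain self-renewing and to leave the pluripotent state poorly.

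The deposited values are FPKM, which correct the number of fragments of a gene for its length and for how deeply the library was sequenced. Estimated depth was 27.8 M and 39.3 M fragments in the WT libraries and 35.2 M and 33.7 M in the KO libraries (M, 1e6), within the 27.8 M to 51.2 M of all 32. Across 4886 genes with a mean of at least 20 FPKM, the standard deviation between duplicates was 0.152 on the log2 scale in WT and 0.102 in KO, against 0.0662 to 0.125 in the other 14 groups, so the WT day 0 pair stood apart as the most different. The labels state separate library preparation and sequencing for the duplicates and not separate cultures, so p-values measure the spread between these libraries, which may be technical. All 16 core pluripotency genes passed the filter on low values, with Pou5f1 between 867.7 and 950.7 FPKM, so the defining markers of the stem cell label were present. The eGFP reporter row was between 0.09 and 0.86 FPKM in the 4 libraries.

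Mettl3, the gene the KO label names, lies on the minus strand of chromosome 14 (ENSMUSG00000022160, 52294841 to 52305128 of GRCm38). It was at 36.8 and 33.2 FPKM in WT and at 43.8 and 42.9 FPKM in KO. Both KO libraries were above both WT libraries, and the gene rose by 0.30 ± 0.07 on the log2(FPKM + 1) scale (SE, limma adjusted p = 0.0293). The call was lost without the filter on low values (limma adjusted p = 0.0795). Exons at its 3′ end overlap exons of Tox4 on the opposite strand. A level per gene is blind to small deletions, frameshifts and the protein, so only the labels tell that the gene was knocked out, and KO means the libraries labelled KO.

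Of 12976 genes tested, 4596 (35.4%) were called at a limma adjusted p under 0.05, 1725 higher in KO (13.3%) and 2871 lower (22.1%). In every one of these 4596 both KO libraries lay on the same side of both WT libraries, as they did for 73.2% of all genes tested. Most calls were small: 63.8% changed by under 0.5 on the log2 scale, and 213 genes (1.64%) changed by at least 1, 71 higher (0.547%) and 142 lower (1.09%). The balance of the calls depended on scaling. As deposited 37.5% of calls were higher in KO and the median change of all tested genes was -0.06, and after median-of-ratios rescaling 52.3% were higher. Single libraries weighed on the count. Without WT library 1 it was 2829, and without either KO library no gene was called, although 4120 and 4227 genes had an unadjusted p under 0.05. With the 4 libraries of the fusion line kept in the fit for the spread, the count without any one library lay between 4420 and 5728. The values given below without a library are from that second kind of fit, which was added after the data were seen.

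The genes with the largest changes lay mostly on the lower side. Of the 14 largest rises among called protein-coding genes 13 are named here, with the 14 largest falls, and the plot of named genes gives each library. The largest fall was that of Sfmbt2 (chromosome 2, 10370510 to 10595253), an imprinted gene for a Polycomb-related protein needed in the placenta. It was at 12.5 and 11.8 FPKM in WT and 1.27 and 1.47 FPKM in KO, a change of -2.48 ± 0.08 (SE, limma adjusted p = 0.00632). Srgn (chromosome 10, 62493833 to 62527451), which encodes the proteoglycan core protein serglycin, was at 9.13 and 9.55 FPKM in WT and 0.61 and 1.28 FPKM in KO, a change of -2.43 ± 0.18. Lgals3 (chromosome 14, 47367751 to 47386160), which encodes the carbohydrate-binding protein galectin-3, went from 39.1 and 40.0 FPKM to 11.0 and 9.66 FPKM. Islr2, a membrane protein gene with leucine-rich repeats, went from 19.2 and 18.5 FPKM to 5.05 and 4.71 FPKM. Acta2, smooth muscle actin, was at 4.69 and 5.89 FPKM in WT and at 0.81 and 0.74 FPKM in KO. Named genes had to be called with groups that do not overlap, so the separation of these 5 genes follows from the choice. The KO duplicates of Srgn lay apart, at 0.61 and 1.28 FPKM. Acta2, like Tmem254c below, passed the filter on low values through WT alone and so had to fall. Tmem254c, at 4.75 and 2.81 FPKM in WT and 0.07 in both KO libraries, belongs to a set of near-identical copies, so its change of -2.13 is uncertain, and without KO library 1 or 2 the call was lost (limma adjusted p = 0.108 and 0.107).

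**Figure D1:**
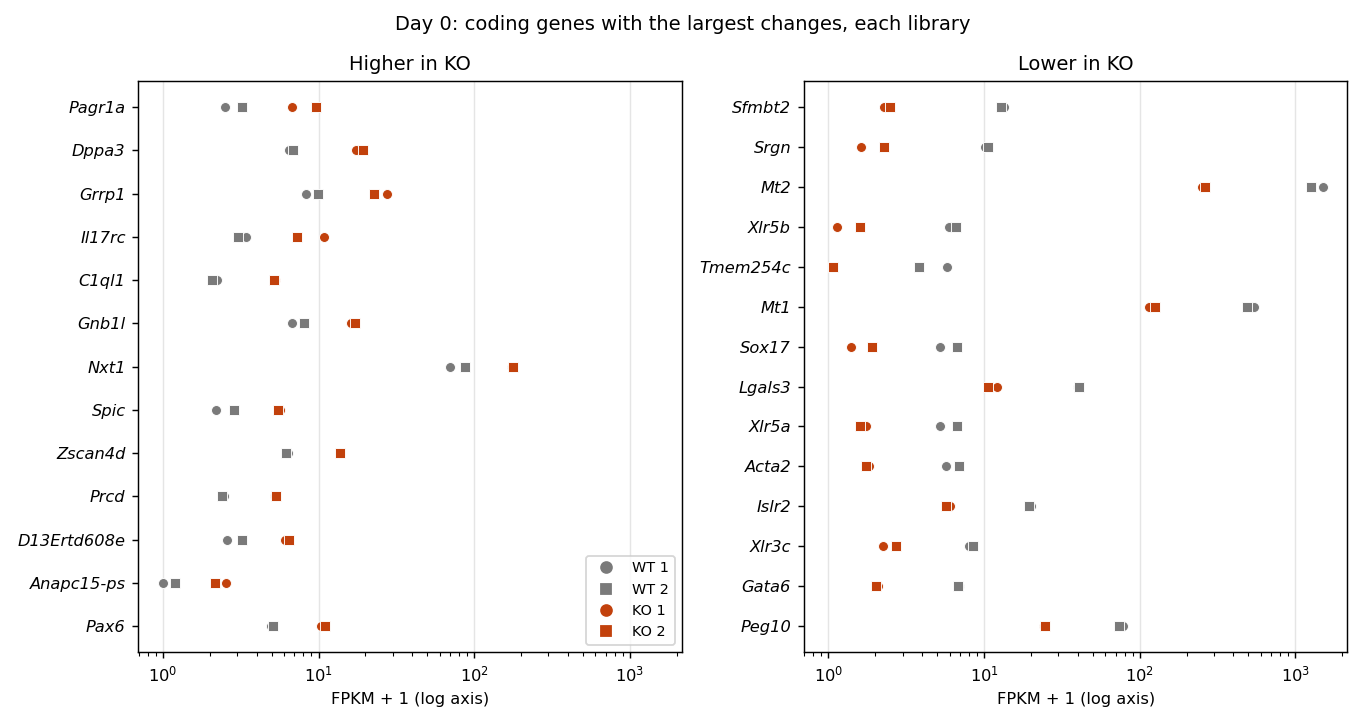
FPKM + 1 on a log axis for 13 of the 14 largest rises (left) and the 14 largest falls (right) among called protein-coding genes in KO against WT at day 0; circles are library 1, squares library 2, grey WT, orange KO. By the rule that chose them, both KO libraries lie on one side of both WT libraries in all 27 genes. The falls include Tmem254c, at 0.07 FPKM in both KO libraries, and Mt2, at 1264 FPKM or more in WT.

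The rises were smaller in size. Dppa3 (chromosome 6, 122626410 to 122630272), the germline and early embryo factor also called Stella, was at 5.41 and 5.89 FPKM in WT and at 16.5 and 18.2 FPKM in KO, a change of 1.46 ± 0.08 (SE, limma adjusted p = 0.00632). Nxt1 (chromosome 2, 148672601 to 148676027), a cofactor of the messenger RNA export receptor, was the most abundant of the named rises, with 68.5 and 86.3 FPKM in WT and 174.3 and 175.8 FPKM in KO. Grrp1 went from 7.31 and 8.94 FPKM to 26.5 and 21.7 FPKM. Pagr1a, a subunit of the histone methyltransferase complexes that mark enhancers, had the largest change, 1.51 ± 0.22, from 1.51 and 2.23 FPKM to 5.79 and 8.64 FPKM. Its exons overlap those of Pagr1b and of a predicted gene on the same strand, so the reads could belong to either. Il17rc, a subunit of the interleukin-17 receptor, and Gnb1l, a WD-repeat protein gene, rose by 1.46 and 1.18. Without the filter on low values the calls of Pagr1a and Il17rc were lost (limma adjusted p = 0.0556 and 0.0544), and in all 45 of the 146 genes followed lost their call. The remaining named rises were C1ql1 (1.28), Spic (1.15), Zscan4d (1.14), Prcd (1.13), D13Ertd608e (1.13), Anapc15-ps (1.10) and Pax6 (1.08), and none of these 7 was above 12.8 FPKM in any library. Pax6 encodes a transcription factor of eye development. Pax6 was at 3.94 and 4.09 FPKM in WT and 9.33 and 9.95 FPKM in KO. Anapc15-ps was at 0 and 0.2 FPKM in WT and 1.55 and 1.15 FPKM in KO. It passed the filter on low values through KO alone and so had to rise. Among the genes named in this and the preceding paragraph, Gnb1l, Prcd and Islr2 share exon sequence with Rtl10, Cygb and Islr, so part of their reads could belong to the neighbour.

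Metallothioneins, small cysteine-rich proteins that bind zinc and copper and whose genes are switched on by the metal-responsive factor MTF1, gave the 2 largest falls among genes at 100 FPKM or more in WT. Mt2 (chromosome 8, 94172664 to 94173568) was at 1500.3 and 1264 FPKM in WT and at 250.2 and 260.3 FPKM in KO, a change of -2.43 ± 0.09 (SE, limma adjusted p = 0.00632). Mt1 (chromosome 8, 94179082 to 94180327) was at 541.0 and 489.7 FPKM in WT and at 114.2 and 123.8 FPKM in KO, a change of -2.10 ± 0.07. Each WT value was more than 3 times each KO value for both genes. Mt3 fell by 0.78, the zinc exporter gene Slc30a1 by 0.61 and Mtf1 by 0.33. In a list of 8 metal-response genes written after these values were seen, 5 fell and none rose, with a median of -0.47. Of all genes tested 22.1% were called lower and 13.3% higher. The falls of Mt1 and Mt2 were known when the list was written, so the count supports nothing further. The call of Mtf1 was lost when any one library was left out, with limma adjusted p between 0.0993 and 0.179.

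The promoters of both abundant metallothionein genes are shown because their transcripts fell together by similar factors. They are the 250 bases before the RefSeq start on GRCm38.p6, plus strand, Mt1 at chr8:94178839-94179088 and Mt2 at chr8:94172368-94172617. Capitals mark matches, on either strand, to the core of the metal response element, searched as TGCACNC or TGCGCNC.
Mt1: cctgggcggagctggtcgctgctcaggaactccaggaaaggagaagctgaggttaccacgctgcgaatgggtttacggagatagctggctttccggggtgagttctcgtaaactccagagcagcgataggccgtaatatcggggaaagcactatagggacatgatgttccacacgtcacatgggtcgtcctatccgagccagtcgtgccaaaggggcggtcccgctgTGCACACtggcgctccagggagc
Mt2: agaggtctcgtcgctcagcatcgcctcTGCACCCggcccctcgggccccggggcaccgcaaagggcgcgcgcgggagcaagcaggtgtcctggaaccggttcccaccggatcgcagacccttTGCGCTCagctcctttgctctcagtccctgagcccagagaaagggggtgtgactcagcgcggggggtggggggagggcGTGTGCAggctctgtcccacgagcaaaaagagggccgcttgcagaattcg
The Mt1 window held 1 match and the Mt2 window 3. The RefSeq starts that set these windows differ from the gene starts given above. Matches outside the windows were not counted, so the numbers may leave out elements of either promoter. Of 27025 promoter windows of the same length 21.3% held at least 1 match and 1.28% at least 3. A match is a description of the letters and does not show binding.

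Markers of extraembryonic endoderm, the primitive and parietal endoderm lineage that stem cell cultures form at low frequency, were mostly lower in KO where they passed the filter. Of 25 markers 15 passed the filter on low values, 13 of these fell and 1 rose, against 22.1% and 13.3% of all genes tested, and the median change was -1.31. A marker that passed only through its WT level had to differ, so the count describes these markers and supports nothing further. Gata6, a transcription factor that specifies the lineage, was at 5.93 and 5.79 FPKM in WT and 1.09 and 1.03 FPKM in KO, a change of -1.74 ± 0.08 (SE, limma adjusted p = 0.00632). Gata4 was at 4.05 and 3.6 FPKM in WT and 0.77 and 0.65 FPKM in KO. Sox17 was at 4.22 and 5.71 FPKM in WT and 0.40 and 0.90 FPKM in KO. In these 3 transcription factor genes every KO library was at or below 1.09 FPKM and every WT library at or above 3.6 FPKM. Cited1 was the 1 marker that rose (0.59), a call lost without WT library 2 (limma adjusted p = 0.0584), and Sparc, the most abundant, was at 99.8 and 100.4 FPKM in WT and 96.6 and 96.1 FPKM in KO. The summed level of all 25 markers was 273.8 and 282.9 FPKM in WT and 182.5 and 180.7 FPKM in KO. Without WT library 1, and likewise without WT library 2, 11 markers passed the filter and 9 of them were called lower. Fewer cells of a type and less RNA per cell cannot be told apart in bulk RNA.

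Genes of the basement membrane, which these endoderm cells secrete in large amounts, fell in part. Of 21 basement membrane and adhesion genes 12 fell, 1 rose and 8 were not called, against 22.1% lower and 13.3% higher of all genes, with a median of -0.32. Col4a1 and Col4a2, neighbouring genes for the collagen IV chains, were at 31.2 and 38.04 FPKM and at 15.95 and 18.08 FPKM in WT, and at 16.7 and 11.9 FPKM and at 6.16 and 5.36 FPKM in KO. Lama1, the laminin alpha chain of the embryo, fell by 1.37 and Nid1, nidogen, by 1.18. Col4a1 and Col4a2 overlap on opposite strands, and both are also on the endoderm list, as is Lama1. Cdh1, the epithelial cadherin, was the gene that rose, by 0.27. The part of the endoderm markers in the falls of this list was not tested.

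Markers of other lineages were mostly under the filter in all 4 libraries. The calls stand beside 22.1% called lower and 13.3% called higher of all genes tested. Of 16 mesendoderm and mesoderm markers 2 were tested, of which Pdgfra fell (-1.32) and Gsc rose (0.46), a call lost without either WT library (limma adjusted p = 0.214 and 0.108). Of 16 neural and eye field markers 5 were tested: Pax6, Nes (0.39) and Tubb3 (0.29) rose, and Map2 (-0.95) and Sox1 (-0.52) fell, with the call of Nes lost without WT library 1 or KO library 1 (limma adjusted p = 0.0648 and 0.0809). Of 20 fibroblast and feeder cell markers 7 were tested and 3 fell, Acta2, Tagln (-0.69) and Vim (-0.24, not called after rescaling), with a summed level of 272.6 and 285.6 FPKM in WT and 230.7 and 235.2 FPKM in KO. Of 12 markers of blood, macrophages and endothelium 5 were tested and 4 fell, led by Cd68 (-0.96), or 2 without either WT library, with a summed level of 49.5 and 45.3 FPKM in WT and 31.9 and 33.5 FPKM in KO. Trophoblast markers were divided. Of 15 tested, 6 fell, among them the keratin genes Krt19 (-0.85) and Krt18 (-0.80), and 3 rose, among them Tfap2a (0.77) and Esx1 (0.70). Markers of these lineages thus went both ways, and those that passed the filter through WT alone had to fall. Whether the falls share a source was not tested.

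Most core genes of the pluripotency network were close to their WT level. Pou5f1 (OCT4) was at 867.7 and 900.3 FPKM in WT and 947.4 and 950.7 FPKM in KO, a change of 0.10 that was not called (limma adjusted p = 0.17) and was called with the 8 day 0 libraries in the fit and without WT library 2 (limma adjusted p = 0.0419 and 0.0112). Sox2 was at 232.2 and 262.0 FPKM in WT and 257.6 and 233.4 FPKM in KO, with overlapping groups and a change of -0.01 that became 0.06 after rescaling. Nanog was at 181.2 and 173.0 FPKM in WT and 188.0 and 193.2 FPKM in KO, a change of 0.11 that was not called (limma adjusted p = 0.154) and was called after rescaling (0.18, limma adjusted p = 0.0473). Against 13.3% higher and 22.1% lower of all genes, 1 of the 16 core genes rose, Dppa3, and 4 fell. The falls were of Dppa5a (-0.45), Lin28a (-0.37), Tdgf1 (-0.25) and Rif1 (-0.25). After rescaling 2 rose and 2 fell, and 9 of the 16 were called lower without WT library 2. The calls of Tdgf1 and Rif1 were lost after rescaling. The other 11 genes lay between -0.18 and 0.16.

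The transcription factors of naive pluripotency, the preimplantation-like state kept by leukaemia inhibitory factor (LIF), changed more and not in 1 direction. Of 15 tested, 10 fell and 2 rose, against 22.1% lower and 13.3% higher of all genes. The median was -0.25, and 8 fell after rescaling. Tfcp2l1 was at 18.3 and 17.2 FPKM in WT and 8.87 and 9.41 FPKM in KO, a change of -0.89 ± 0.07 (SE, limma adjusted p = 0.00679). Klf5 was at 102.5 and 99.2 FPKM in WT and 56.9 and 57.7 FPKM in KO, a change of -0.80 ± 0.05. Both are activators of the naive network, and in both every KO library lay below every WT library, as in every gene called lower. Stat3, which transmits the LIF signal, fell by 0.55, Nr5a2 by 0.48, Tcl1 by 0.43, Tbx3 by 0.41, Gbx2 by 0.33, Nr0b1 and Mybl2 by 0.25 and Esrrb by 0.21. The calls of Esrrb and Nr0b1 were lost after rescaling (limma adjusted p = 0.076 and 0.0856). Zfp42 (REX1) was at 408.0 and 460.8 FPKM in WT and 584.3 and 591.0 FPKM in KO, and Klf2 rose by 0.38, so the family members Klf2, Klf4 (-0.02, not called) and Klf5 did not move together. Klf4 changed sign after rescaling (0.05).

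Genes of the formative and primed states, through which stem cells pass on leaving naive pluripotency, showed no common direction. Of 17 tested, 3 rose and 4 fell, near the 13.3% and 22.1% of all genes, and the rises were led by Sall2 (0.54). Without WT library 2, 7 were called higher. The falls were led by the de novo DNA methylation genes. Dnmt3l, a cofactor of the de novo methyltransferases (chromosome 10, 78041947 to 78063622), was at 222.1 and 221.5 FPKM in WT and 88.1 and 89.4 FPKM in KO, a change of -1.31 ± 0.04 (SE, limma adjusted p = 0.00632). Dnmt3b, the methyltransferase itself, was at 59.2 and 61.0 FPKM in WT and 32.4 and 31.1 FPKM in KO, a change of -0.90 ± 0.05.

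Regulators of DNA methylation and of Polycomb, which help to keep developmental genes silent, were mostly lower. Of 21 tested, 15 fell, none rose and 6 were not called, against 22.1% lower and 13.3% higher of all genes. The median was -0.36. After rescaling 12 fell. Next to the Dnmt3 genes, the Polycomb components Phf19 and Cbx7 fell most, Phf19 from 5.65 and 5.91 FPKM to 2.57 and 2.42 FPKM and Cbx7 from 187.3 and 167.8 FPKM to 118.4 and 120.5 FPKM. The summed level of the list was 1718 and 1716 FPKM in WT and 1256 and 1281 FPKM in KO. In the list of retroelement silencing genes 8 of 22 fell, led by Atrx (-0.59) and Atf7ip (-0.54), and 2 rose, with a median of -0.05 that became 0.03 after rescaling.

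Some germline genes whose promoters are held silent by DNA methylation in somatic cells fell. Of 27 tested, 13 fell, 2 rose and 12 were not called, against 22.1% lower and 13.3% higher of all genes tested, with a median of -0.47, and 13 fell after rescaling too. Dazl, an RNA-binding protein of germ cells, was at 12.03 and 11.69 FPKM in WT and 6.15 and 5.24 FPKM in KO, a change of -0.94 ± 0.09 (SE, limma adjusted p = 0.00773). Hormad1, a protein of the meiotic chromosome axis, was at 24.7 and 22.6 FPKM in WT and 11.5 and 12.1 FPKM in KO. Taf7l, a germ cell subunit of the general transcription machinery, fell by 0.93. The 2 that rose were Rpl10l (0.55) and Tex19.1 (0.44). Xlr3a and Xlr4a of this list belong to the Xlr genes, X-linked clusters of near-identical copies. All 9 Xlr genes tested were called lower, against 22.1% of all genes, with changes from -2.22 to -0.87. Those that passed the filter through WT alone, such as Xlr5b and Xlr5a, had to fall, so the count supports nothing further. Xlr5b was at 4.96 and 5.58 FPKM in WT and 0.13 and 0.59 FPKM in KO, and Xlr3a was at 21.3 and 23.6 FPKM in WT and 12.9 and 10.45 FPKM in KO. Reads of such copies can be split between them, so the single values are uncertain. The summed level of the 9 genes was 67.2 and 69.5 FPKM in WT and 24.8 and 23.8 FPKM in KO. The Xlr list was written after these values were seen, and without WT library 1 some of its genes no longer passed the filter.

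Imprinted genes, expressed from the maternal or paternal copy according to methylation set in the germline, changed in both directions. Of 35 tested, 17 fell, 7 rose and 11 were not called, against 22.1% lower and 13.3% higher of all genes, with a median of -0.24. Of these, 6 fell by at least 1 and none rose by as much, against 1.09% and 0.547% of all genes. After rescaling 14 fell and 8 rose. Besides Sfmbt2 the largest falls were of Peg10, Igf2 and Cdkn1c. Peg10, a gene derived from a retrotransposon and needed in the placenta, was at 76.6 and 72.4 FPKM in WT and 23.3 and 23.8 FPKM in KO, a change of -1.62 ± 0.05 (SE, limma adjusted p = 0.00632). Igf2, a fetal growth factor, was at 2.34 and 1.95 FPKM in WT and 0.17 and 0.13 FPKM in KO. It passed the filter through WT alone and so had to fall. Cdkn1c, a growth-restraining inhibitor of cyclin-dependent kinases, was at 10.1 and 11.2 FPKM in WT and 3.93 and 3.82 FPKM in KO. Igf2 and Cdkn1c lie near each other on chromosome 7 and act on growth in opposite ways. H19, the noncoding neighbour of Igf2, fell as well, from 54.9 and 61.1 FPKM to 30.1 and 21.2 FPKM. Annotated genes overlap exons of Igf2, H19 and Cdkn1c, and their reads could be shared.

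Genes of the 2-cell-like state, a rare and transient state of stem cell cultures that resembles the embryo after its first division, were mostly higher in KO. Of 22 tested, 15 rose and 2 fell, against 13.3% higher and 22.1% lower of all genes tested, with a median of 0.45. Zscan4d was at 5.35 and 5.15 FPKM in WT and 12.7 and 12.8 FPKM in KO, a change of 1.14 ± 0.06 (SE, limma adjusted p = 0.00632). Zscan4 proteins lengthen telomeres and mark the state. Gm4340 was at 37.0 and 49.8 FPKM in WT and 94.6 and 85.3 FPKM in KO, and Gm20767 rose by 0.98. The genes that fell were Tdpoz3 (-0.48, not called after rescaling) and Zfp809 (-0.47), which encodes a silencer of retroviruses. Duxf3, which sets off the state, was under 1 FPKM in all 4 libraries. The list holds multicopy families of near-identical genes, so its members are not separate measurements. Its summed level was 286.4 and 295.4 FPKM in WT and 411.8 and 406.3 FPKM in KO.

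**Figure D2:**
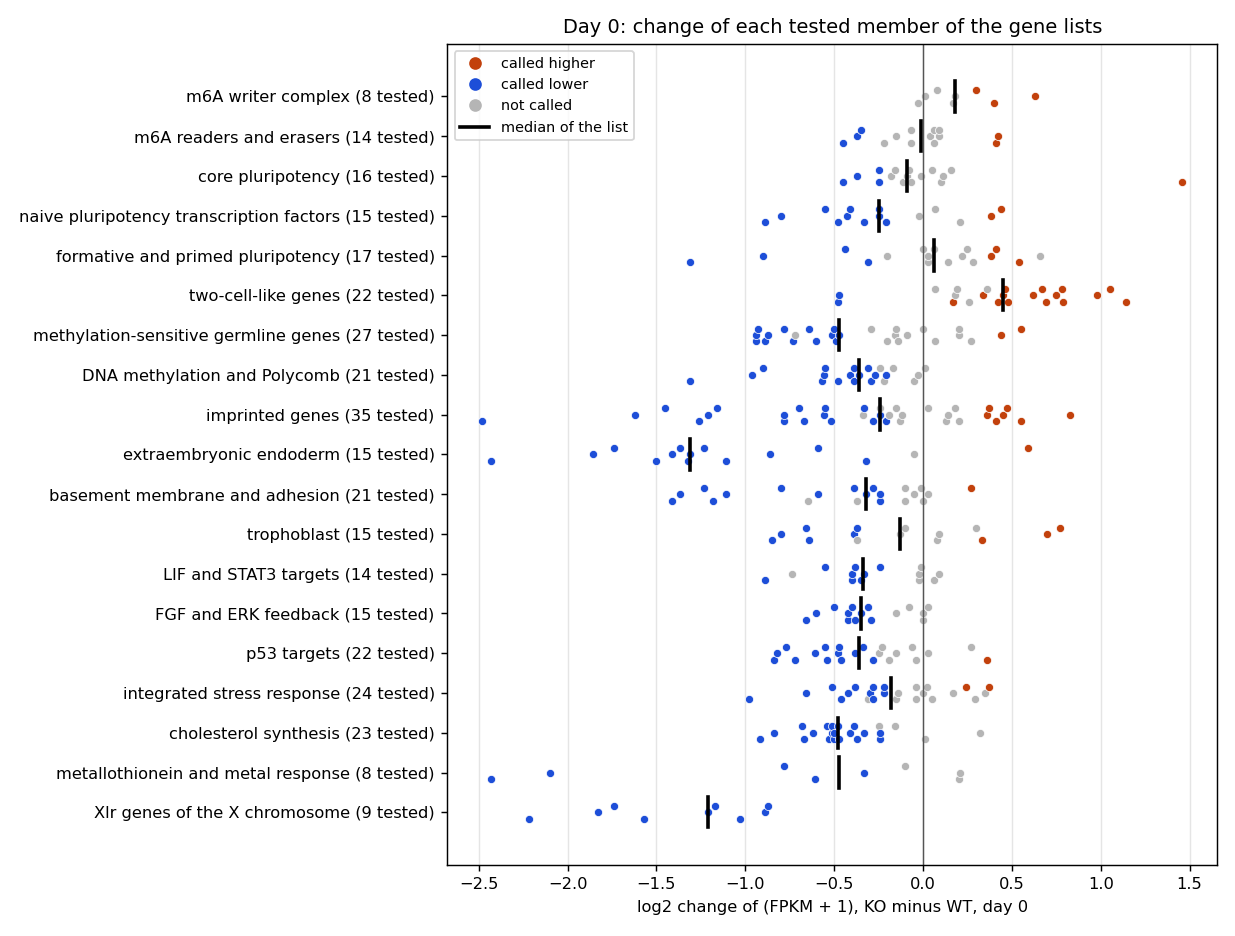
Log2 change of FPKM + 1, KO minus WT at day 0, for each tested member of 19 gene lists; red points were called higher, blue points called lower, grey points not called, and black bars are list medians. The lowest medians are those of extraembryonic endoderm (-1.31) and the Xlr genes (-1.21), and the highest is that of the 2-cell-like genes (0.45).

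Genes of the m6A machinery other than Mettl3 changed by at most 0.63. Of the 8 genes of the writer complex 3 rose and none fell, against 13.3% higher and 22.1% lower of all genes tested. Wtap was at 75.6 and 83.8 FPKM in WT and 125.6 and 121.8 FPKM in KO, a change of 0.63 ± 0.07 (SE, limma adjusted p = 0.00811), which was the largest of the complex. Rbm15 rose by 0.40. Mettl14 was at 22.7 and 22.1 FPKM in WT and 23.0 and 22.0 FPKM in KO, with overlapping groups and a change of 0.01. Virma (0.18), Cbll1 (0.17), Rbm15b (0.08) and Zc3h13 (-0.03, and 0.04 after rescaling) were not called. Cbll1 was called without WT library 1 (0.32, limma adjusted p = 0.0129), and Virma was called after rescaling and without WT library 2 (limma adjusted p = 0.0309 and 0.0483). Of 14 readers and erasers 2 rose, the YTH-domain reader genes Ythdf2 (0.42) and Ythdc1 (0.41), and 3 fell, Igf2bp2 (-0.45), Fmr1 (-0.37) and Ythdc2 (-0.35). The call of Ythdc2 was lost after rescaling (limma adjusted p = 0.0514). Ythdf2, the reader that directs marked transcripts to decay, was at 21.7 in both WT libraries and 29.5 and 29.3 FPKM in KO. Of 12 other RNA methyltransferase genes 2 rose, Pcif1 (0.40), which methylates the cap-adjacent adenosine, and Wdr4 (0.32), and none fell. In the readers and erasers both counts lay near the shares of all genes, as did the rises among the other methyltransferases.

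Cholesterol synthesis genes, which the transcription factor SREBP2 switches on when sterols are low, were mostly lower in KO. Of 23 tested, 19 fell, none rose and 4 were not called, against 22.1% lower and 13.3% higher of all genes. The median was -0.48, and 17 fell after rescaling. Hmgcs1, which makes the precursor HMG-CoA (chromosome 13, 119690379 to 119708260), was at 79.9 and 79.2 FPKM in WT and 42.6 and 40.8 FPKM in KO, a change of -0.92 ± 0.05 (SE, limma adjusted p = 0.00632). Sqle, squalene epoxidase, was at 48.5 and 45.9 FPKM in WT and 25.8 and 26.1 FPKM in KO. Lss, lanosterol synthase, fell by 0.68. In each of these 3 enzyme genes both KO libraries lay below both WT libraries, as in every gene called lower. The groups did not overlap in 73.2% of all genes tested. The summed level of the list was 1140 and 1128 FPKM in WT and 827.9 and 835.9 FPKM in KO.

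The promoter of Hmgcs1, the gene of this list that fell most, is shown with the sterol regulatory element searched as TCACNCCAC on both strands, in capitals. The window is the 250 bases before the RefSeq start on GRCm38.p6, plus strand, chr13:119690101-119690350.
Hmgcs1: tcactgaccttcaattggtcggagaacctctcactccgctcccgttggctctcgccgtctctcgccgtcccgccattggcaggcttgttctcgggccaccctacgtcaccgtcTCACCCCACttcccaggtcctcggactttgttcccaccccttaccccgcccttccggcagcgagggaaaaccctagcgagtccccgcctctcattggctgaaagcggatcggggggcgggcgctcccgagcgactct
The window held 1 match. Of 27025 promoter windows 1.04% held the motif, and of the 16 list members with a promoter in the table only Hmgcs1 did. That a window lacks these letters says nothing of the factor.

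Targets of p53 and of the integrated stress response, which slow growth under damage or amino acid shortage, fell in part. Of 22 p53 targets tested 13 fell, 1 rose, Aen (0.36), and 8 were not called, with a median of -0.36, against 22.1% lower and 13.3% higher of all genes. Plk2 was at 10.9 and 10.4 FPKM in WT and 5.27 and 5.75 FPKM in KO, and Pmaip1 (NOXA), which promotes cell death, was at 13.1 and 12.9 FPKM in WT and 6.90 FPKM in both KO libraries. Bbc3 (PUMA) fell by 0.77 and Trp53inp1 by 0.72. Of 24 tested genes of the integrated stress response 11 fell, 2 rose and 11 were not called, with a median of -0.18, and 8 fell after rescaling. Cth, an enzyme of cysteine synthesis, was at 13.7 and 14.1 FPKM in WT and 6.42 and 6.71 FPKM in KO. Ddit4, an inhibitor of mTORC1, fell by 0.66, and the transcription factors Atf5 and Atf4 fell by 0.51 and 0.46.

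Among signalling targets the counts are again set against 22.1% lower and 13.3% higher of all genes. Of 14 LIF and STAT3 targets 8 fell, none rose and 6 were not called, with a median of -0.34. Next to Tfcp2l1 and Stat3 the largest falls were of Myc (-0.40) and Il6st (-0.40), the receptor subunit gp130. Of 15 tested genes of FGF and ERK feedback 10 fell, none rose and 5 were not called, with a median of -0.35. Fgfr2 was at 3.85 and 3.53 FPKM in WT and 2.00 and 1.94 FPKM in KO, and the feedback inhibitors Dusp4, Spry4 and Dusp6 fell by 0.60, 0.50 and 0.42. The shares in the next 3 lists lay nearer to those of all genes. Of 14 Nodal pathway genes 4 fell, led by Skil (-0.55), and 1 rose, and after rescaling 2 fell. Of 10 tested BMP targets 2 rose, Id3 (0.42) and Smad6 (0.35), and 1 fell, Chrd (-0.72), an inhibitor of BMP, with the call of Smad6 lost without WT library 1 or KO library 1 (limma adjusted p = 0.0566 and 0.0666). Of 9 Wnt genes tested only Notum fell (-0.31), a call lost after rescaling and without either KO library.

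In the remaining lists the calls lay closer to the share of all genes. Of 20 cyclins and CDK inhibitors 3 rose, Ccnd2 (0.81), Ccnd1 (0.46) and Mycn (0.35), and 4 fell, led by Cdkn1c. Ccnd1, cyclin D1, was at 25.7 and 25.8 FPKM in WT and 35.5 and 35.9 FPKM in KO. Of 24 genes of glycolysis and hypoxia 8 fell and 4 rose, and after rescaling 5 fell and 9 rose, so no direction is given. Of 16 interferon response genes tested 4 fell, led by Ifitm3 (-0.70), and 3 rose, led by Oas1a (0.83). Of 12 immediate early genes 3 fell and 2 rose. Of the 13 respiratory chain genes encoded in mitochondria 1, mt-Cytb (0.54), was called, and their summed level was 110100 and 83680 FPKM in WT and 99470 and 101000 FPKM in KO, with the 2 WT libraries at the extremes. Without WT library 1, 8 of them were called higher, and without WT library 2, 7 were called lower.

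Among noncoding genes the clearest fall was that of Neat1 (chromosome 19, 5824708 to 5845478), the long RNA around which nuclear paraspeckles form. It was at 89.7 and 95.1 FPKM in WT and 27.4 and 24.5 FPKM in KO, a change of -1.79 ± 0.07 (SE, limma adjusted p = 0.00632). Malat1, its neighbour on chromosome 19, was at 483.6 and 422.5 FPKM in WT and 445.5 and 461.4 FPKM in KO, with overlapping groups. Of 7 further paraspeckle and neighbour genes, Malat1 included, none was called, and 3 of the 8 were called lower without WT library 2. Gm49089 fell from 9.35 and 8.62 FPKM to 2.09 and 2.08 FPKM, and Gm27624 from 14.97 and 6.60 FPKM to 0 in both KO libraries, on a short exon shared with Tug1. The largest noncoding rise with close duplicates was that of Gm44170 (chromosome 6, 88503605 to 88504277), from 1.49 and 2.13 FPKM to 23.4 and 30.7 FPKM, a change of 3.32 ± 0.18. Its exon overlaps an exon of Sec61a1 on the opposite strand, and whether the counting used strand is not given in the sources used here. Snora73b (0 and 1.32 FPKM in WT, 34.8 and 9.32 FPKM in KO) and Rn7s2 (19.5 and 26.0 FPKM in WT, 133.5 and 66.9 FPKM in KO) are short RNAs that poly(A) selection recovers unevenly. The call of Snora73b was lost without WT library 1 and without KO library 1 (limma adjusted p = 0.0896 and 0.0973), and that of Rn7s2 with all 32 libraries in the fit (limma adjusted p = 0.502).

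Across coding genes the change moved with gene structure. The 11492 protein-coding genes tested were put in 4 equal classes by the length of the longest annotated transcript, and from the shortest to the longest class the median change was 0.08, -0.02, -0.10 and -0.20. The share called higher went from 24.2% to 5.22% and the share called lower from 13.5% to 36.4%. In 4 classes by number of exons the medians were 0.05, -0.02, -0.09 and -0.20. The 4 pairs of a KO and a WT library gave medians between -0.21 and -0.19 in the class with the longest transcripts, while duplicates of the same group differed by at most 0.02 in any class of length. The longest internal exon, a feature known for dense m6A, gave no steady order. In 4 classes by its length the medians were -0.02, -0.08, -0.13 and -0.09 from the shortest to the longest. Within the 2 middle classes of transcript length, the 1318 genes with an internal exon over 400 bases had a median of -0.03, and the 3713 with none that long had a median of -0.09. Expression level moved with the change as well: genes with a mean of 100 FPKM or more had a median of 0.10, and those under 5 FPKM a median of -0.13. Length, exon number and level were not separated, and the part of RNA quality or library preparation in the trend was not tested.

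**Figure D3:**
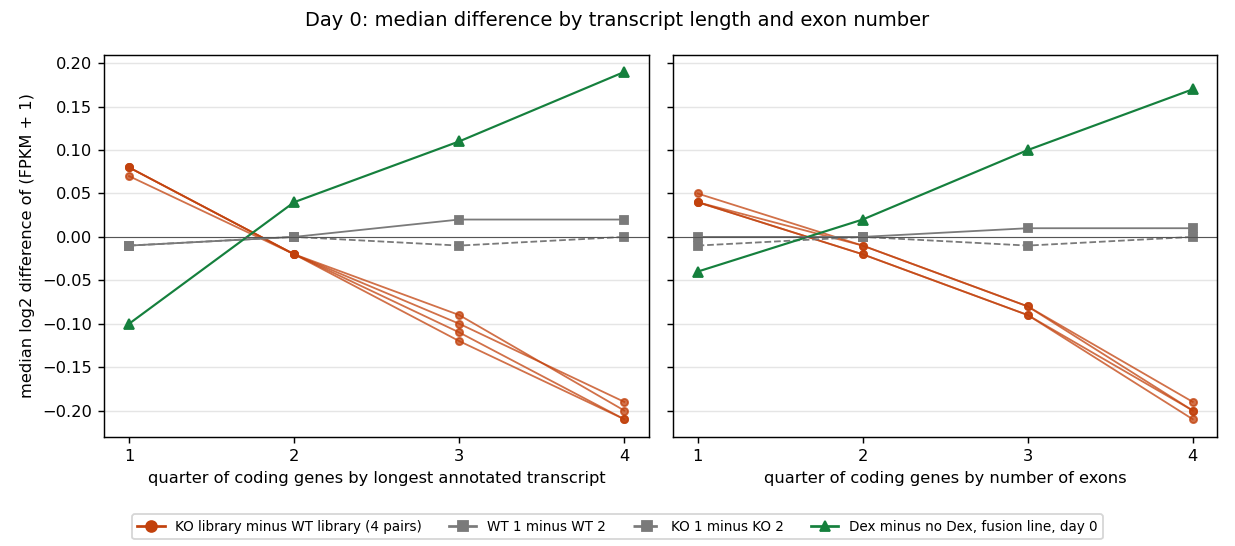
Median log2 difference of FPKM + 1 in 4 classes of the protein-coding genes by longest annotated transcript (left) and by number of exons (right), shortest or fewest first. Orange lines are the 4 pairs of a KO minus a WT library, grey lines the duplicates of 1 group and green lines Dex minus no Dex in the fusion line at day 0; the orange lines end near -0.20, the grey lines stay within 0.02 of 0 and the green lines end at 0.19 and 0.17.

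By chromosome, medians lay between -0.12 and 0.01 on the autosomes and the X chromosome. The highest was on chromosome 8, 0.01, where 18.2% of 720 genes were called higher and 18.2% lower. On the Y chromosome 6 of 11 tested genes fell and none rose, against 22.1% lower and 13.3% higher of all genes. The median was -0.37. Uty was at 6.84 and 6.62 FPKM in WT and 3.77 and 3.87 FPKM in KO, and Ddx3y was at 13.4 and 13.9 FPKM in WT and 8.82 and 8.38 FPKM in KO. Eif2s3y fell by 0.31. Processed pseudogenes had a median of 0.19 over 684 genes, and their reads can be shared with the parent genes.

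The day 0 changes were followed into libraries the comparison did not use. In the fusion line at day 0, Dex against no Dex, 62% of the 4422 day 0 calls tested there were called in the opposite direction to KO against WT, 2.46% in the same direction and 35.5% were not called. Of all 12764 genes tested there 44.5% were called, 26.7% higher and 17.8% lower, and genes not called in KO against WT were called opposite in 26.5%. This opposite movement was known from earlier results of these data and is no independent support. No WT or KO group was given Dex. An effect of Dex itself therefore cannot be told apart from one of the fusion in the nucleus. All 19 cholesterol genes called in KO were called opposite under Dex, and Hmgcs1 was at 40.6 and 39.8 FPKM without Dex and 73.9 and 72.1 FPKM with it, near its WT level. Of the 15 called genes of DNA methylation and Polycomb 14 were called opposite, and of the 24 called imprinted genes 16. Dnmt3l was at 161.8 and 167.4 FPKM without Dex and 218.8 and 220.2 FPKM with it. Neat1 was at 20.9 and 20.7 FPKM without Dex and 52.7 and 52.1 FPKM with it, between KO and WT.

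Fewer members of other groups were called opposite under Dex. Of the 14 called endoderm markers 3 were called opposite under Dex. Gata6 was at 1.19 and 1.38 FPKM without Dex and 2.07 and 1.69 FPKM with it, under the 5.93 and 5.79 FPKM of WT, and was not called between them. Sfmbt2 was at 1.04 and 1.09 FPKM without Dex and 2.32 and 2.48 FPKM with it, a rise of 0.72 (limma adjusted p = 0.00519) that left it under the 12.5 and 11.8 FPKM of WT. Mt2 was at 1129 and 1124 FPKM without Dex and 1097 and 1089 FPKM with it, nearer to WT than to KO in both, and was not called between them. None of the 5 metal-response genes and 1 of the 9 Xlr genes was called opposite. Dppa3 was at 25.1 and 26.3 FPKM without Dex and 30.4 and 30.7 FPKM with it, above KO and further from WT.

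**Figure D4:**
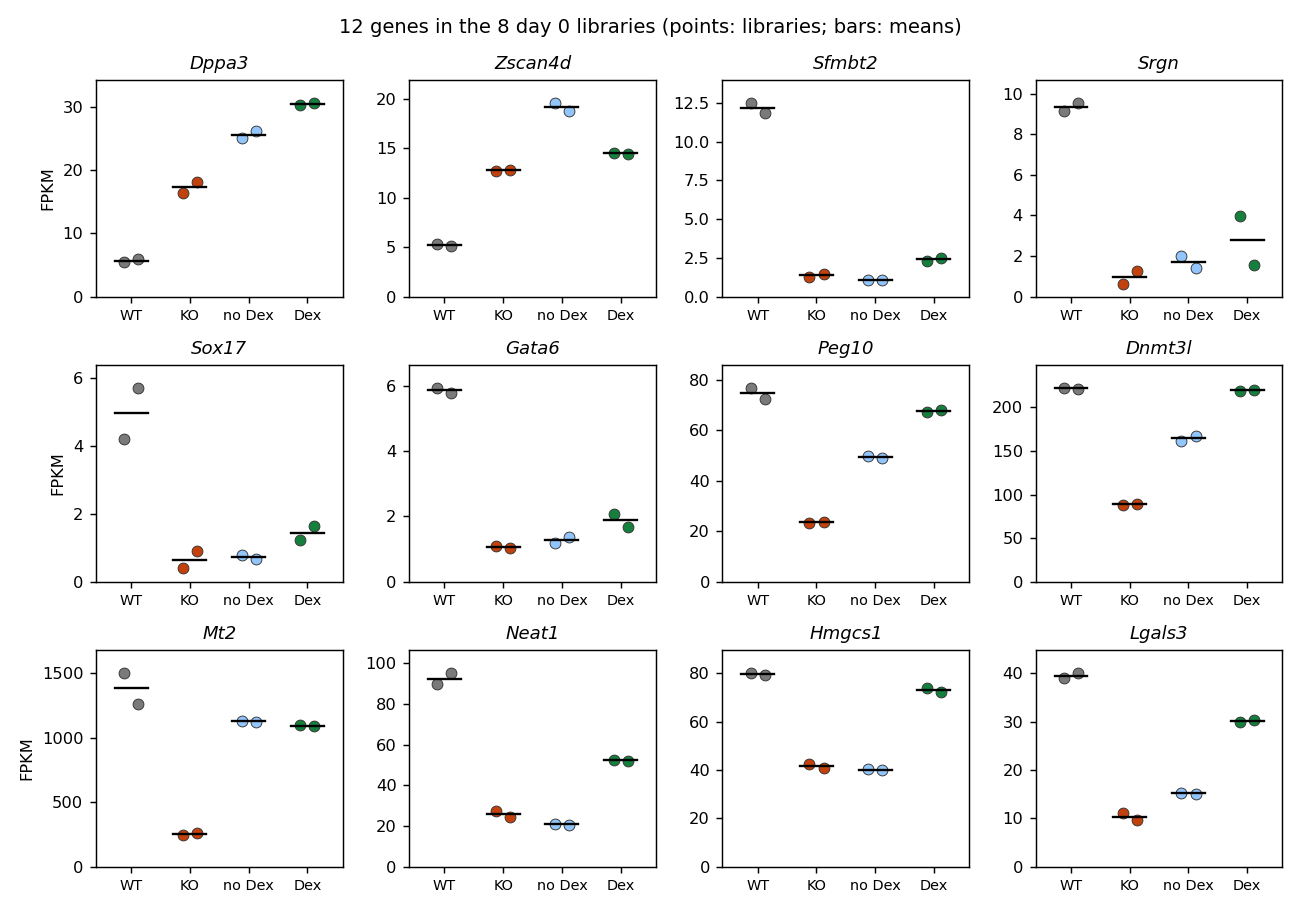
FPKM of 12 genes in the 8 day 0 libraries: WT, KO, and the fusion line without (no Dex) and with Dex; points are libraries and bars are means of 2, on linear axes from 0. Hmgcs1 reaches 72.1 FPKM or more with Dex against 79.2 FPKM or more in WT, Sfmbt2 stays at 2.48 FPKM or less outside WT, and Mt2 is low only in KO among these libraries.

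At day 2 of differentiation, in other libraries of the same lines, 54.6% of the 4358 day 0 calls tested there were called in the same direction and 15.4% in the opposite one, with 63.7% of all 13313 genes called there, 40.2% higher and 23.4% lower. Of the genes not called at day 0, 35.1% were called in the same direction and 25.2% in the opposite one. Calls higher at day 0 kept their direction in 71.5% and were called opposite in 8.54%. For calls lower these shares were 44% and 19.7%. Of the day 0 genes changed by at least 1, 66.9% of 169 were called in the same direction. Of 15 endoderm markers 12 were called in the same direction, and Srgn had a WT level of 42.84 ± 2.28 FPKM against 1.255 ± 0.403 FPKM in KO (SD, n = 2). Dnmt3l was again lower, with 232.1 ± 4.27 FPKM in the WT pair against 76.85 ± 0.735 FPKM in the KO pair (SD, n = 2). None of 23 cholesterol genes was called in the same direction and 17 were called in the opposite one. Of the p53 targets 2 were called in the same direction and 10 in the opposite one. Mt2 differed less than at day 0, with 1859 ± 0.523 FPKM for WT against 1471 ± 30.1 FPKM for KO (SD, n = 2), a change of -0.34.

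The day 0 difference was also set against the KO minus WT difference at day 6, a test that uses the day 0 libraries again. Of 15069 genes 53.5% were called, 29.6% with a higher and 23.9% with a lower difference at day 6. Of the 34 genes named by size and as the target, 11 were called higher and 15 lower in this test. Adding 1 FPKM shrinks the difference of genes that were low at day 6, so a call need not be a changed ratio. Srgn, Sox17 and Gata6 differed further at day 6. Sox17 reached 20.48 ± 0.615 FPKM in WT against 0.18 ± 0.156 FPKM in KO (SD, n = 2), and the difference was lower by 2.33 than at day 0. Mt2 and Neat1 were not called in this test, and at day 6 Mt2 had 259 ± 5.28 FPKM in WT against 48.31 ± 2.36 FPKM in KO (SD, n = 2). Dppa3 no longer differed in mean beyond its spread, with 5.17 ± 1 FPKM in WT against 4.845 ± 0.714 FPKM in KO (SD, n = 2).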

How the data were processed

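RNA was measured by poly(A) RNA-seq, and the 4 day 0 libraries of WT and KO cells are 2 of 16 groups of duplicates. The authors deposited FPKM values for 55492 rows, made with STAR and Cuffdiff on mm10 per the submitters' processing notes, which give no versions; strand use is not given in the sources used here. FPKM holds no counts, so depth was estimated from the steps of low values, of which 86.6% to 89.3% lay within 0.2 of a whole fragment (40.0% by chance); 3 fragments on a transcript of 2 kb correspond to 0.038 to 0.054 FPKM in the 4 libraries, counting error only.

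Genes with at least 1 FPKM in at least 2 of the fitted libraries were tested with limma 3.58.1 (R 4.3.3) on log2(FPKM + 1), with a mean-variance trend, 2 residual degrees of freedom and Benjamini-Hochberg adjustment over all genes, two-sided at 0.05. Changes are on that scale, which understates changes of low genes. The fit held the 4 compared libraries. The scripts were tested on simulated data. Alternatives were the pseudocount (0.1), the filter, rescaling by median-of-ratios factors (0.974 to 1.03), more libraries in the fit, a replicate block and leaving out each library.

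Genes were named by size of change (14 coding and 3 noncoding each way, called, groups not overlapping), with up to 4 called members of each list by size and all members of the writer complex, core and naive lists that are described; a few genes that the rule names are not reported here. Members, lists and rule were chosen with earlier results of these data known, and the metal response, Xlr and paraspeckle lists, Sparc, Malat1, H19, Cdh1 and further single members after their values were seen. Gene IDs matched GENCODE (GRCm38) for 99.5% of rows. Promoters are RefSeq's on GRCm38.p6. Exons of 51 of the 146 genes examined overlap another annotated gene, so their levels can include its reads.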

Additional observations from a re-analysis of the deposited data

Results flagged for a closer look

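The KO minus WT difference at day 6 was tested against the same difference at day 0 in one limma fit over the WT and KO libraries of both days, which uses the day 0 libraries again. The values below are the differences at day 6 minus those at day 0 (log2 of FPKM + 1), for the genes among the 34 named by size and as the target whose difference was called at a limma adjusted p under 0.05. No explanation was tested.

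Among the genes higher in KO at day 0, most had a lower difference at day 6. Mettl3 gave -0.23, Pagr1a -1.0, Dppa3 -1.54, Zscan4d -1.35, Spic -0.71, Prcd -0.72 and Anapc15-ps -0.88. Zscan4d, Spic, Prcd and Anapc15-ps averaged under 1 FPKM in both groups at day 6. Adding 1 FPKM shrinks such differences, so the values of these genes need not be a changed ratio. C1ql1 and Pax6 gave -2.43 and -1.06. The short RNA Rn7s2 gave -2.10. Grrp1 and Nxt1 had a higher difference, by 0.89 and 0.50.

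Among the genes lower in KO at day 0, the endoderm genes Srgn, Sox17 and Gata6 gave -3.10, -2.33 and -1.04, so KO lay further below WT at day 6. Peg10 gave -1.23 and Mt1 -0.29. Islr2 gave 3.69 and was higher in KO at day 6, at 7.59 ± 0.509 FPKM against 1.24 ± 0.113 FPKM in WT (SD, n = 2). Acta2 gave 1.19, Lgals3 0.95 and Sfmbt2 1.09, and each remained lower in KO at day 6. Sfmbt2 then averaged 2.285 ± 0.318 FPKM in the WT pair, with the KO pair averaging 0.255 ± 0.0212 FPKM (SD, n = 2). In the same order Lgals3 averaged 1.895 and 0.555 FPKM, and Acta2 18.4 and 11.52 FPKM. Sfmbt2 and Lgals3 were low by then, and adding 1 FPKM shrinks such differences. Their values need not be a changed ratio. Xlr5b, Xlr5a and Xlr3c gave 2.08, 1.60 and 1.57, Gm27624 3.46 and Gm49089 1.79, all of them genes at or below 0.2 FPKM in both groups at day 6.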

How the results depend on the processing

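Leaving out each replicate gave between 0 and 3927 called genes in KO against WT at day 0 with no other library in the fit, where the lone library is assumed to vary like the remaining pair, and no gene was called without either KO library. It gave 2080 without the filter on low values, 7547 with all 32 libraries and 213 at a change of at least 1. Calls higher in KO made up 37.5%, and 52.3% after rescaling. Dex against no Dex gave 5678 calls, 3139 to 3241 with each replicate left out, 3322, 3304, 3140 and 3189 with the other day 0 libraries kept, and 85 at a change of at least 1. At that size day 2 gave 781 and the difference between days 6 and 0 gave 1628. Mettl3 kept 0.30 without the filter (limma adjusted p = 0.0795) and ranged from 0.23 to 0.38 with each replicate left out, and its call was lost without either KO library (0.158 and 0.135). Uncalled genes changed sign. After rescaling Zc3h13 gave 0.04, Sox2 0.06, Klf4 0.05 and Sparc 0.02. Without WT library 2 Mettl14 gave -0.01, Sox2 0.08 and Malat1 -0.09. Without KO library 1 Mettl14 gave -0.03, and without KO library 2 Zc3h13 gave 0.01, Sox2 0.06 and Malat1 -0.02. With each replicate left out, Mettl14 ranged from -0.03 to 0.04, Zc3h13 from -0.06 to 0.01, Sox2 from -0.10 to 0.08 and Malat1 from -0.09 to 0.10. The cause was not tested. Same-numbered libraries showed no shared deviation across genes (r = -0.037), which cannot tell whether they were grown or prepared together. The replicate block gave 3401 calls.

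The level that 3 fragments give on a transcript of 2 kb, at most 0.054 FPKM in these 4 libraries, lies under the filter of 1 FPKM. With 2 libraries a group the spread between duplicates is itself poorly known, and the WT pair had the largest of all groups.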
